A study of Mus musculus with 18 samples.

Results

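The genes described here carry out or control the making of fatty acids and the placing of double bonds in them. They are Acly, Me1, Acaca, Fasn, Elovl6, Scd1, Scd2, Fads2, Srebf1 and Thrsp, 10 genes of the 53090 in the count table, listed by name for their known roles, with earlier results of these data known. All 10 passed the filter on low counts. Their reads were counted by RNA-seq in beta cells sorted from mouse islets, in 18 libraries. The genotype was LIRKO, in which the liver lacks the insulin receptor, or control (Ctrl), and the diet was chow or HFD, read here as a high-fat diet. There were 6 libraries of Ctrl on chow, 5 of Ctrl on HFD, 4 of LIRKO on chow and 3 of LIRKO on HFD. Islets of every group were kept in culture overnight before they were dispersed and sorted by scatter and autofluorescence. The labels do not give the promoter that drives the liver deletion, the strain, sex and age of the mice, the time on diet or which libraries are separate animals, so p-values measure the spread between libraries, which may be technical in part.

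Cells build fatty acids from citrate that leaves the mitochondrion. ATP-citrate lyase (Acly) cleaves it to acetyl-CoA, acetyl-CoA carboxylase (Acaca) makes malonyl-CoA, and fatty acid synthase (Fasn) joins these units into palmitate with NADPH that malic enzyme (Me1) helps to supply. Elovl6 lengthens palmitate, stearoyl-CoA desaturases (Scd1, Scd2) introduce a double bond into saturated chains, and Fads2 desaturates polyunsaturated chains. Srebf1 encodes the transcription factor SREBP-1, which turns on most of these genes, and Thrsp encodes Spot14, a small protein linked to lipogenesis. In beta cells malonyl-CoA restrains fatty acid oxidation when glucose is high, so the pathway is known there as a link between fuel supply and insulin secretion.

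Some libraries stood apart and bear on the results below. Total counts ran from 19490235 to 51714775 per library, and the lowest were those of Ctrl HFD replicates 1 and 2. Malat1, a nuclear RNA, took its largest shares of the counts in the same libraries, at 1.37% and 1.06% against 0.0866% to 0.6003% elsewhere. In LIRKO chow, replicate 1 closely resembled replicate 2, and replicate 3 resembled replicate 4: the median absolute deviation of the log2 ratio between libraries was 0.0928 and 0.108 over 11230 genes, against at least 0.178 for any other pair within a group. Their differences were larger than counting noise, with a chi-square per degree of freedom of 4.92 and 6.21, against 25.8 to 265 for other within-group pairs. An excess over counting noise does not show whether the 4 libraries came from separate animals. All 4 were kept, and results are also given with each pair summed. The 10 beta cell markers checked, which include the insulin genes, summed to 99830 to 234136 counts per 1e6 reads (CPM) over the 18 libraries. Of 10 adipocyte markers, Adipoq reached at most 0.2005 CPM, Plin1 at most 0.049 and Lep at most 0.0436, while Fabp4 reached 22.4, Lipe 7.495 and Pck1 4.12.

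In Ctrl beta cells, 5 of the 10 genes were lower on HFD than on chow and none was higher, by edgeR's quasi-likelihood test with an adjusted p under 0.05 over the 19284 genes tested. Of all genes 4.35% were called lower and 9.93% in either direction. These were the desaturase genes Scd1, Scd2 and Fads2, the elongase gene Elovl6, and Acly. On chow, LIRKO beta cells had 2.89-fold more Thrsp RNA and 2.81-fold less Scd1 RNA than Ctrl, where 2.95% of all genes were called higher and 2.2% lower (5.15% in all). By the same test 0 of the 10 passed for genotype on HFD (0.508% of all genes called), for diet in LIRKO (2.03%), or for the genotype by diet interaction (0.00519%). Without Ctrl HFD replicates 1 and 2 none of the 5 diet calls in Ctrl held, although each gene was still lower on HFD. A fit on the 2 groups alone also passed 0 of 10 (0.00585% of all genes). Leaving out single libraries gave 1 to 6 calls among the 10 (69 to 3877 over all genes). The genotype calls on chow were lost when each near-identical pair of LIRKO chow libraries was summed (adjusted p = 0.0677 for Thrsp and 0.217 for Scd1).

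**Figure D1:**
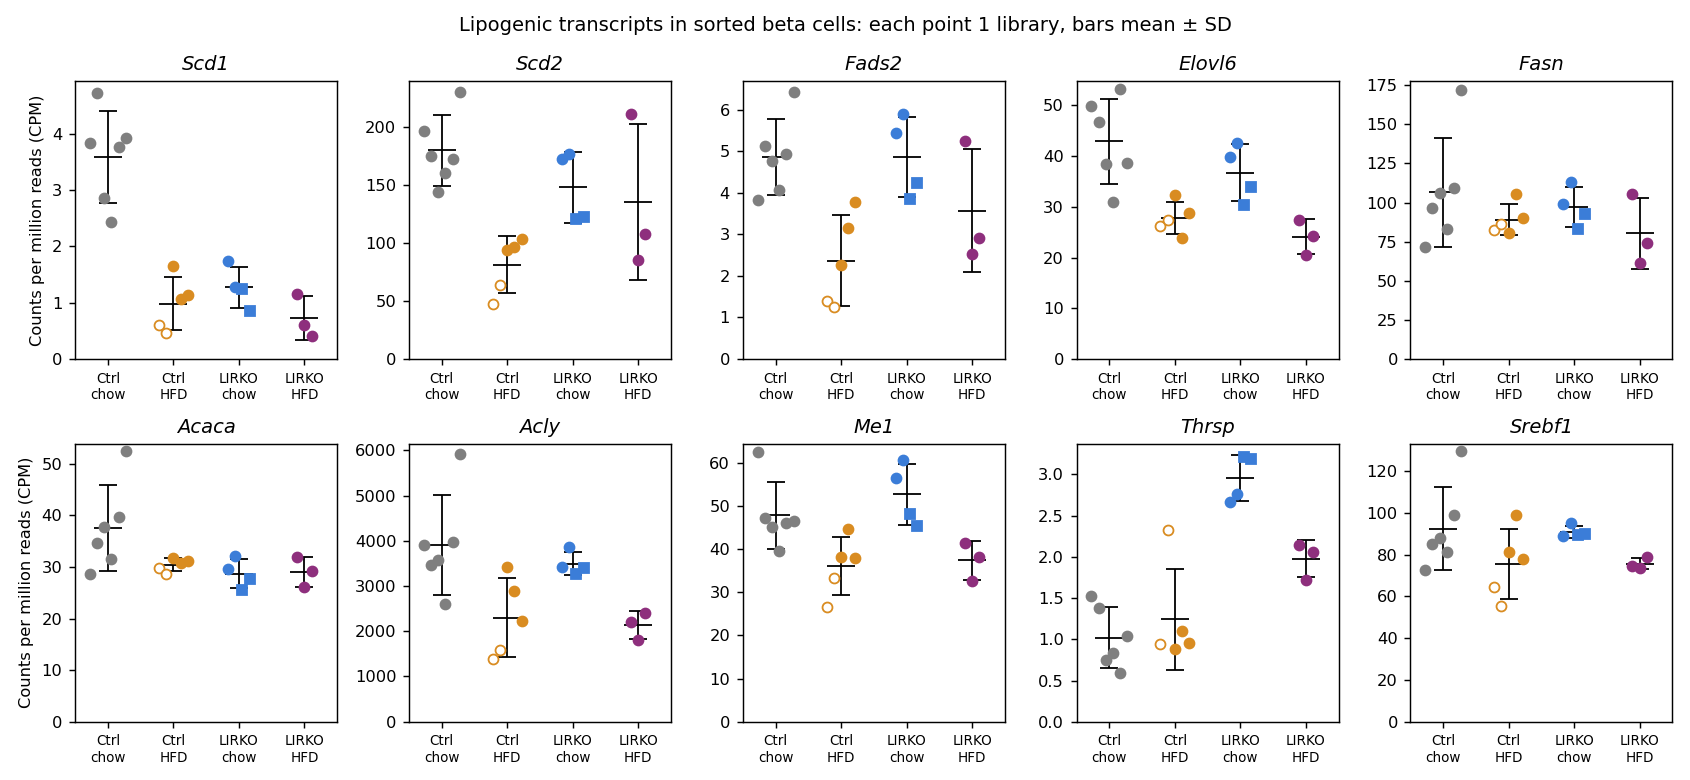
CPM of each of the 10 genes (vertical axes) in every library, by group (horizontal axis), with the group mean and SD as a bar. Hollow points are Ctrl HFD replicates 1 and 2, and squares are LIRKO chow replicates 3 and 4. Scd1 in the 6 Ctrl chow libraries (2.43 to 4.72 CPM) lay above all 12 others, and Thrsp was highest in LIRKO chow.

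Levels per kilobase of exon differed widely within the pathway. In Ctrl chow, Acly stood at 740 ± 209 CPM per kb (SD, n = 6), and Scd2 came next at 32.9 ± 5.54. Srebf1 (16.4), Me1 (12.4), Fasn (9.72) and Elovl6 (6.68) followed, and within that run each neighbour's range overlapped the next. Acaca was at 2.20, Fads2 at 1.47, Scd1 at 0.734 and Thrsp at 0.466 CPM per kb. Acaca and Fads2 overlapped, and so did Scd1 and Thrsp. Acly and Scd2 held the first and second places in all 4 groups, and only in Ctrl HFD did the range of Scd2 overlap that of Srebf1. The end of the order differed between groups: Scd1 was above Thrsp in Ctrl chow and was the lowest of the 10 in the other 3 groups, where the ranges of these 2 genes did not overlap. Scd1, the main desaturase of liver and fat, was thus read from few fragments here, 10 to 161 per library.

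**Figure D2:**
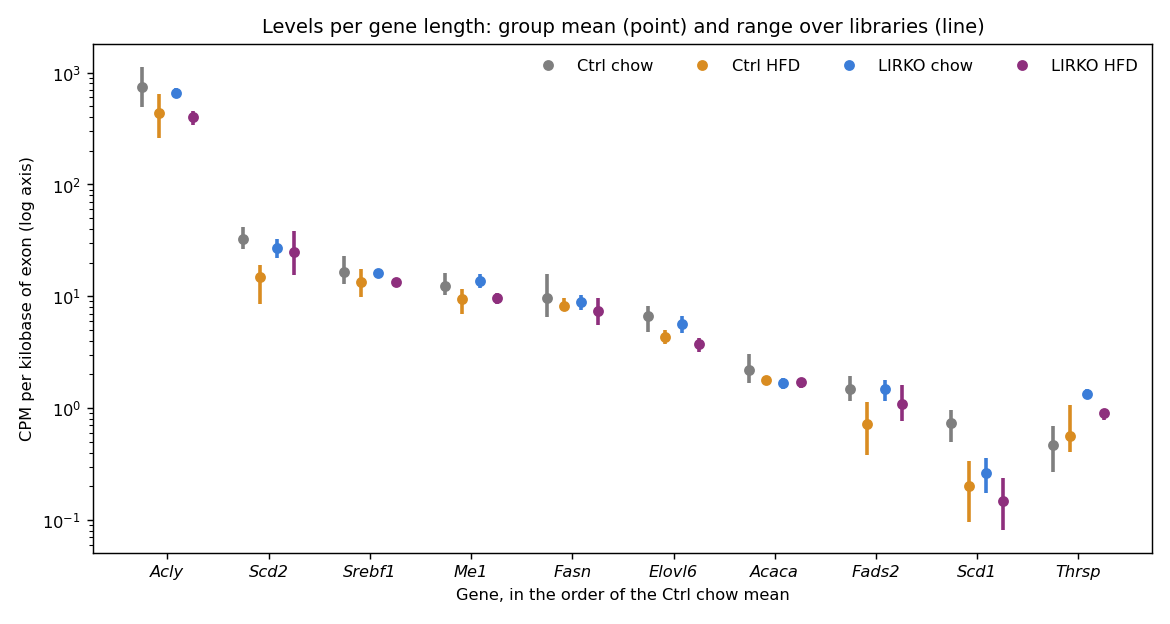
CPM per kb of exon (log axis) of the 10 genes in each group, with the mean as a point and the range over libraries as a line. Acly lies highest in each of the 4 groups, and Scd1 lies lowest in all but Ctrl chow.

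The start-proximal sequence of 4 genes is shown because 3 of them were called lower on HFD in Ctrl and the other was called higher in LIRKO on chow. Each is the 250 bases before the start in RefSeq on GRCm38.p6, in lower case and 5′ to 3′ on the gene's strand, with matches to the motifs searched in capitals. RefSeq windows matched 8 of the 10 genes.
Fads2, chr19:10101504-10101753, minus strand: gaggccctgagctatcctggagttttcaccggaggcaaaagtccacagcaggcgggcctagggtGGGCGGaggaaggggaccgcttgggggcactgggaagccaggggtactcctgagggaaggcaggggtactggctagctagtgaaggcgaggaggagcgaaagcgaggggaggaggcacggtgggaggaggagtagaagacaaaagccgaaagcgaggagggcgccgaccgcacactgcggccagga
Elovl6, chr3:129532136-129532385, plus strand: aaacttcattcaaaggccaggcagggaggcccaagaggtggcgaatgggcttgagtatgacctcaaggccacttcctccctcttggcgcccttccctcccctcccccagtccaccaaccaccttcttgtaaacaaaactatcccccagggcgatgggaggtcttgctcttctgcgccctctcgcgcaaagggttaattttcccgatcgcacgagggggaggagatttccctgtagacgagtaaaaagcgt
Acly, chr11:100528001-100528250, minus strand: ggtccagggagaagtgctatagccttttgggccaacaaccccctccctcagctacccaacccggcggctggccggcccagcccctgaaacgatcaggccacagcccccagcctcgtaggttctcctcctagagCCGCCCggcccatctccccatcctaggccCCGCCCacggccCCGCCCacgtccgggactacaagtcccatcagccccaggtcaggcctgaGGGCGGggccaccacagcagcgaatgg
Thrsp, chr7:97417551-97417800, minus strand: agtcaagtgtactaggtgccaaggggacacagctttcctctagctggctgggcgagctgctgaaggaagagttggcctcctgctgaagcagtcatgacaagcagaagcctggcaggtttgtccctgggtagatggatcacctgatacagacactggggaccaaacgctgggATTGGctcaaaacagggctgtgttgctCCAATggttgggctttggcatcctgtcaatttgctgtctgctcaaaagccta
The motifs, searched on both strands, were the sterol regulatory element TCACNCCAC, the E-box CACGTG, the NF-Y box CCAAT and the Sp1 box GGGCGG. Acly held 4 Sp1 boxes, Fads2 held 1, Thrsp held 2 NF-Y boxes, and Elovl6 held none of the 4 motifs. No window of the 8 genes held TCACNCCAC or CACGTG. The window of Acaca (chr11:84195188-84195437) lies within the gene span given below, and those of Thrsp and Fads2 lie mostly within theirs. Absence from these windows thus does not show absence from the promoters. Of 32817 mouse promoters in the table, 1.05% held TCACNCCAC, 6.02% CACGTG, 33.8% CCAAT and 32.7% GGGCGG. These matches describe letters only.

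Scd1 (ENSMUSG00000037071, chromosome 19, 44394455 to 44407879 on GRCm38, minus strand) introduces the double bond that turns stearate into oleate. Its level in Ctrl chow was 2.43 CPM at the lowest, 3.80 at the median and 4.72 at the highest. In Ctrl HFD the libraries stood at 0.596, 0.466, 1.66, 1.07 and 1.14 CPM, and in LIRKO chow at 1.74, 1.27, 1.24 and 0.851. In LIRKO HFD they stood at 1.16, 0.610 and 0.401 CPM. All 6 Ctrl chow libraries were thus above every library of the other groups, which overlapped one another. The log2 change on HFD in Ctrl was −1.84 (SE 0.334, adjusted p = 0.015) and that of LIRKO against Ctrl on chow was −1.49 (SE 0.352, adjusted p = 0.0184). With the LIRKO chow pairs summed the adjusted p on chow was 0.217 at a log2 change of −1.47, and without LIRKO chow replicate 2, 3 or 4 it was 0.051, 0.0703 and 0.0903. The diet change in Ctrl was −1.43 without Ctrl HFD replicates 1 and 2 (adjusted p = 0.0855). For diet in LIRKO the log2 change was −0.82 (SE 0.416, adjusted p = 0.331), and for genotype on HFD −0.47 (SE 0.402, adjusted p = 0.828). In bulk samples, fewer cells with a transcript and less transcript per cell cannot be told apart.

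Scd2 (ENSMUSG00000025203, chromosome 19, 44293674 to 44306864, plus strand) encodes the desaturase that is broadly expressed outside liver. Ctrl chow ran from 143.7 CPM through a median of 173.8 to 230.1. Ctrl HFD stood at 47.0, 63.5, 94.2, 96.6 and 103.7 CPM, all below Ctrl chow. LIRKO chow stood at 172.5, 176.1, 120.8 and 122.0 CPM, which split by the near-identical pairs, and LIRKO HFD at 211.2, 85.4 and 107.9. LIRKO HFD replicate 1 was thus within the range of Ctrl chow, and the other 2 were below it. The log2 change on HFD in Ctrl was −1.15 (SE 0.238, adjusted p = 0.0234), or −0.82 without Ctrl HFD replicates 1 and 2 (adjusted p = 0.138). In LIRKO it was −0.13 (SE 0.293, adjusted p = 0.83), and the interaction for Scd2 did not pass (log2 1.01, SE 0.372, adjusted p = 0.763). The genotype difference on HFD was 0.73 (SE 0.275, adjusted p = 0.425), and 0.25 without LIRKO HFD replicate 1 and 0.46 without Ctrl HFD replicates 1 and 2.

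Scd1 and Scd2 are close paralogs, so their reads can in part be assigned to either. The share of Scd1 in the reads of both genes needs no scaling between libraries. On chow it was 1.97% ± 0.391 (SD, n = 6) in Ctrl and 0.855% ± 0.174 (n = 4) in LIRKO. On HFD it was 1.18% ± 0.363 (n = 5) in Ctrl and 0.542% ± 0.17 (n = 3) in LIRKO. Scd2 thus gave nearly all of the reads in every library, and the 4 LIRKO chow libraries (0.692% to 1.01%) lay below the 6 Ctrl chow libraries (1.5% to 2.62%). In two-sided exact permutation tests over libraries, the share was lower in LIRKO on chow (p = 0.00952, the smallest the 210 splits can give; 0.026 adjusted over 4 comparisons). It was also lower in LIRKO on HFD by an exact test (p = 0.0357, the smallest that 56 splits can give, adjusted 0.0476). Neither gene passed alone in that comparison, with log2 changes of −0.47 for Scd1 and 0.73 for Scd2, so a lower share is not by itself less Scd1. The share was lower on HFD in Ctrl (exact p = 0.013, adjusted 0.026). In LIRKO the diet difference in the share had an exact p of 0.114 among 35 splits, which cannot go below 0.0571. With the LIRKO chow pairs summed, the difference on chow was −1.1 percentage points, with an exact p of 0.0714, the smallest that so few libraries allow. Without Ctrl HFD replicates 1 and 2, the difference on HFD was −0.761 with an exact p of 0.1, again the smallest possible, so neither p could pass 0.05. Without the same libraries the diet difference in Ctrl was −0.665 (exact p = 0.0714).

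**Figure D3:**
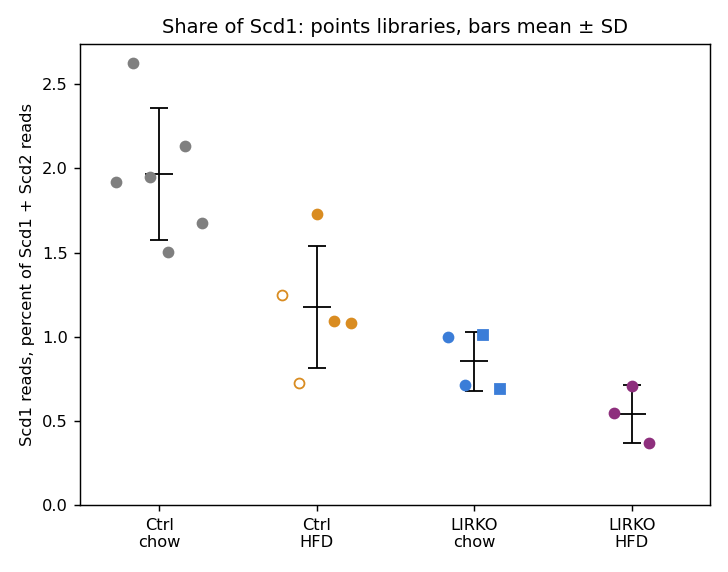
Share of Scd1 in the summed Scd1 and Scd2 reads (percent, vertical axis) in each library by group, with the mean and SD. Hollow points are Ctrl HFD replicates 1 and 2, and squares are LIRKO chow replicates 3 and 4. The LIRKO chow libraries (0.692% to 1.01%) lie below all Ctrl chow libraries (1.5% to 2.62%).

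Scd3, another paralog, was lower in LIRKO than in Ctrl on chow. It was at 2.07 to 3.84 CPM in Ctrl chow and 1.28 to 1.59 in LIRKO chow, a log2 change of −1.21 (SE 0.274, adjusted p = 0.0145; 0.194 with the pairs summed). On HFD in Ctrl its log2 change was −0.36 (SE 0.249, adjusted p = 0.313). Scd4 was at 0.0466 to 0.291 CPM. How far shared reads link Scd1 and Scd3 was not tested.

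Fads2 (ENSMUSG00000024665, chromosome 19, 10062765 to 10101746, minus strand), the delta-6 desaturase, acts first on dietary polyunsaturated fatty acids. Ctrl chow ran from 3.82 CPM through a median of 4.85 to 6.43. Ctrl HFD stood at 1.39, 1.26, 2.25, 3.15 and 3.78 CPM, all below Ctrl chow, by a narrow margin between 3.78 and 3.82. LIRKO chow stood at 5.44, 5.89, 3.85 and 4.23 CPM and LIRKO HFD at 5.25, 2.53 and 2.91. As with Scd2, LIRKO HFD replicate 1 was as high as the chow libraries. The log2 change on HFD in Ctrl was −1.02 (SE 0.281, adjusted p = 0.0388), or −0.62 without Ctrl HFD replicates 1 and 2 (adjusted p = 0.204).

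Elovl6 (ENSMUSG00000041220, chromosome 3, 129532355 to 129638495, plus strand) lengthens palmitate to stearate, the substrate of the Scd enzymes. Ctrl chow ran from 30.9 CPM through a median of 42.7 to 53.2, and Ctrl HFD stood at 26.3, 27.4, 32.4, 23.9 and 28.8. LIRKO chow stood at 39.9, 42.7, 30.3 and 34.0 CPM and LIRKO HFD at 27.4, 20.6 and 24.3. The diet groups overlapped by 1 library in Ctrl and not at all in LIRKO. The log2 changes were almost equal, −0.63 in Ctrl (SE 0.142, adjusted p = 0.0298) and −0.61 in LIRKO (SE 0.18, adjusted p = 0.0891), and DESeq2 gave an adjusted p of 0.0342 in LIRKO. Without Ctrl HFD replicates 1 and 2 the Ctrl value was −0.56 (adjusted p = 0.156).

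Acly (ENSMUSG00000020917, chromosome 11, 100476353 to 100528000, minus strand) supplies the acetyl-CoA for the pathway. Ctrl chow ran from 2601 CPM through a median of 3742 to 5919. Ctrl HFD stood at 1388, 1577, 3425, 2900 and 2225 CPM, LIRKO chow at 3429, 3867, 3273 and 3400, and LIRKO HFD at 2207, 1801 and 2404. The lowest of all 18 libraries were Ctrl HFD replicates 1 and 2, while in LIRKO every HFD library was below every chow library. The log2 change on HFD was −0.76 in Ctrl (SE 0.231, adjusted p = 0.0468) and −0.71 in LIRKO (SE 0.292, adjusted p = 0.228). The Ctrl value was −0.41 without Ctrl HFD replicates 1 and 2 (adjusted p = 0.277). The Acly call in Ctrl was lost in 15 of the 18 refits that left out 1 library.

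Me1 (ENSMUSG00000032418, chromosome 9, 86581371 to 86695953, minus strand) was at 47.8 ± 7.73 CPM (SD, n = 6) in Ctrl chow and 36.1 ± 6.68 (n = 5) in Ctrl HFD. In LIRKO it was at 52.6 ± 7.12 CPM (n = 4) on chow and 37.4 ± 4.52 (n = 3) on HFD. The diet groups overlapped in Ctrl and not in LIRKO. The log2 change on HFD was −0.41 in Ctrl (SE 0.139, adjusted p = 0.0629) and −0.49 in LIRKO (SE 0.176, adjusted p = 0.161).

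Fasn (ENSMUSG00000025153, chromosome 11, 120805846 to 120824547, minus strand) and Acaca (ENSMUSG00000020532, chromosome 11, 84129672 to 84401651, plus strand), the enzymes of the central steps, did not pass in any comparison. Fasn ran from 61.2 to 171.9 CPM over the 18 libraries and Acaca from 25.5 to 52.6. The highest value of both was in Ctrl chow replicate 6. The log2 change on HFD in Ctrl was −0.26 for Fasn (SE 0.189, adjusted p = 0.338) and −0.30 for Acaca (SE 0.129, adjusted p = 0.112). On chow, Acaca had a log2 change of −0.39 in LIRKO (SE 0.138, adjusted p = 0.123).

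Thrsp (ENSMUSG00000035686, chromosome 7, 97412938 to 97417730, minus strand) went the other way from Scd1 on chow. Ctrl chow ran from 0.586 CPM through a median of 0.941 to 1.53, and LIRKO chow stood at 2.67, 2.77, 3.22 and 3.18. Ctrl HFD stood at 0.943, 2.33, 0.888, 1.10 and 0.951 CPM and LIRKO HFD at 2.15, 1.72 and 2.06. Every LIRKO chow library was thus above every Ctrl library, and on HFD the 3 LIRKO libraries were above 4 of 5 Ctrl libraries, the exception being Ctrl HFD replicate 2. The log2 change of LIRKO against Ctrl was 1.53 on chow (SE 0.294, adjusted p = 0.00463) and 0.68 on HFD (SE 0.335, adjusted p = 0.657). With the LIRKO chow pairs summed the chow value was 1.54 with an adjusted p of 0.0677, and all 18 refits that left out 1 library kept the call. Without Ctrl HFD replicates 1 and 2 the HFD value was 1.01 (adjusted p = 0.144). The groups then no longer overlapped, which follows from leaving out replicate 2, the only Ctrl HFD library that overlapped LIRKO HFD. Thrsp was read from 19 to 161 fragments per library.

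Srebf1 (ENSMUSG00000020538, chromosome 11, 60199089 to 60222581, minus strand) did not pass in any comparison. On chow it was at 92.4 ± 20 CPM (SD, n = 6) in Ctrl and 90.8 ± 2.95 (n = 4) in LIRKO, and on HFD at 75.5 ± 16.6 (n = 5) and 75.6 ± 2.64 (n = 3). The log2 genotype difference was −0.03 on chow (SE 0.158) and 0.0004 on HFD (SE 0.179), with signs that changed between settings. On HFD the change was −0.29 in Ctrl (SE 0.149, adjusted p = 0.174) and −0.26 in LIRKO (SE 0.188, adjusted p = 0.483). Gene-level counts do not separate the SREBP-1a and SREBP-1c transcripts. Of its 5634 exon bases, 109 overlap Rai1 on the opposite strand, so a small part of its reads is uncertain because the strand setting of the counting is not given.

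For LIRKO against Ctrl on chow, the 2 genes that passed also had groups that did not overlap, as did 11.7% of all genes. With the LIRKO chow pairs summed, 0 of 10 passed and 0.976% of all genes did. For LIRKO against Ctrl on HFD, 0 of 10 passed in edgeR and in DESeq2, and 1 (Scd2) had an unadjusted p under 0.05, as did 7.81% of all genes.

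For HFD against chow in Ctrl, the median log2 change of the 10 was −0.518 against 0.043 over all genes, and 9 of 10 values were below 0, as were 46.9% of all genes. For Scd1, Scd2 and Fads2 the groups did not overlap, as for 2.13% of all genes in that direction. Leaving out libraries cannot make separate groups overlap. Their separation without Ctrl HFD replicates 1 and 2 (3.56% of all genes) therefore adds nothing. Without Ctrl HFD replicates 1 and 2, 0 of 10 passed and 0.18% of all genes did. A fit on the 2 groups alone passed 0 of 10 and 0.00585% of all genes (1 gene), and one with the LIRKO chow pairs summed passed Scd1 and Scd2 (0.577% of all genes). Leaving out single libraries gave 1 to 6 calls, among 69 to 3877 over all genes. There was 1 call without Ctrl chow replicate 1 or 6, or Ctrl HFD replicate 1 or 2. There were 2 without Ctrl chow replicate 2, and 3 without Ctrl chow replicate 5 or LIRKO HFD replicate 3. DESeq2 passed 6, with Me1 (adjusted p = 0.0333) in addition, where it called 3959 genes in all against 1914 in edgeR.

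For HFD against chow in LIRKO, 0 of 10 passed in edgeR, and 3 (Elovl6, Acly and Me1) had an unadjusted p under 0.05 (16.5% of all genes). DESeq2 passed 1, Elovl6, where it called 1059 genes in all against 392 in edgeR. The median log2 change of the 10 was −0.47 against 0.032 over all genes. For Elovl6, Acly, Me1, Thrsp and Srebf1 all 3 HFD libraries were below all 4 chow libraries, as for 18.3% of all genes in that direction. A fit on the LIRKO groups alone passed Elovl6, Acly, Me1 and Srebf1, with adjusted p-values of 0.0267, 0.0158, 0.0359 and 0.0448, and called 18.8% of all genes. In that fit the spread comes from LIRKO libraries only, among them the near-identical chow pairs. With those pairs summed in the fit of all groups, 0 of 10 passed and 7 genes in all did. The edgeR adjusted p-values of these genes were then 0.395, 0.616, 0.529 and 0.771. The interaction passed for 0 of 10 in edgeR and in DESeq2, with 1 (Scd2) at an unadjusted p of 0.0139, where 5.52% of all genes were under 0.05. The diet changes in Ctrl and LIRKO were therefore not shown to differ for any of the 10. Both genotype comparisons and both diet comparisons share groups with one another, so their values are not independent.

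**Figure D4:**
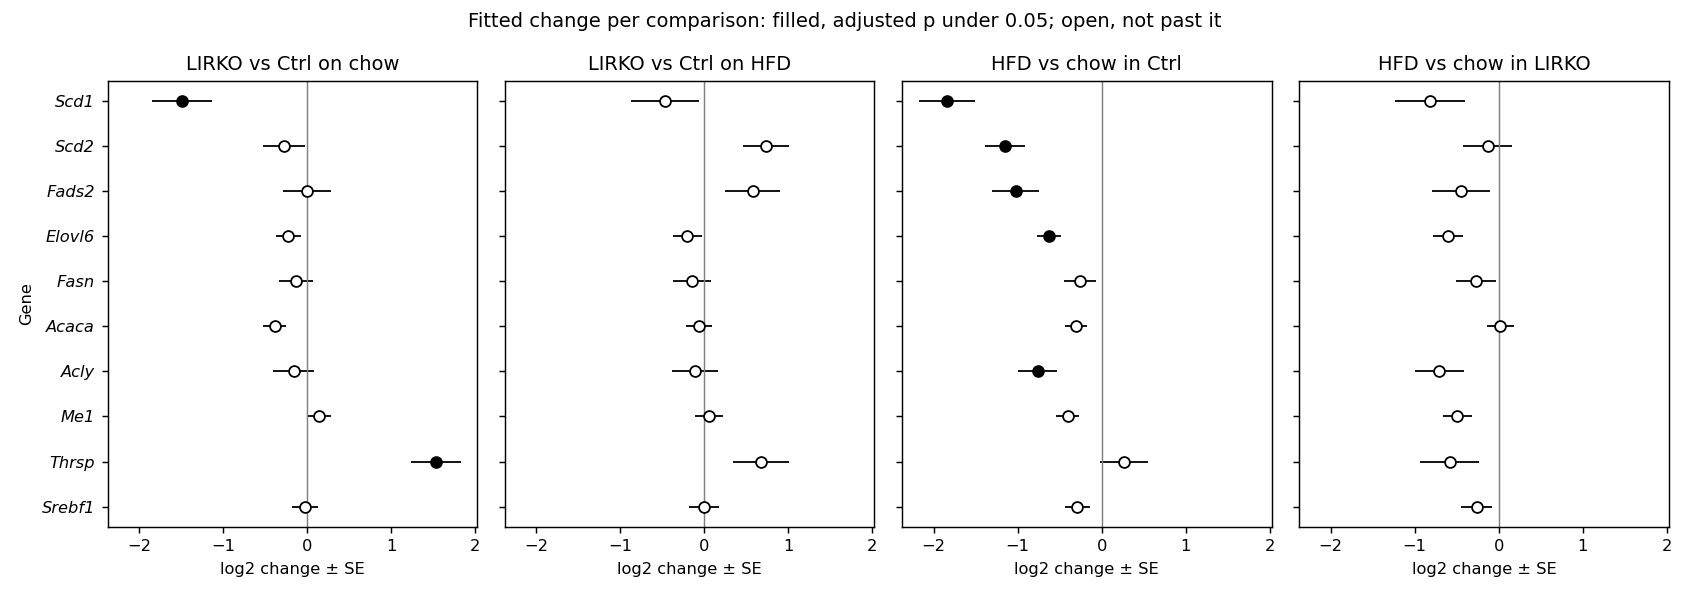
Log2 change with SE (horizontal axis) of the 10 genes in the 4 pairwise comparisons, with filled points where the adjusted p was under 0.05. In HFD against chow in Ctrl, 5 genes passed and lie left of 0, and on chow Thrsp (1.53) and Scd1 (−1.49) lie on opposite sides.

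**Figure D5:**
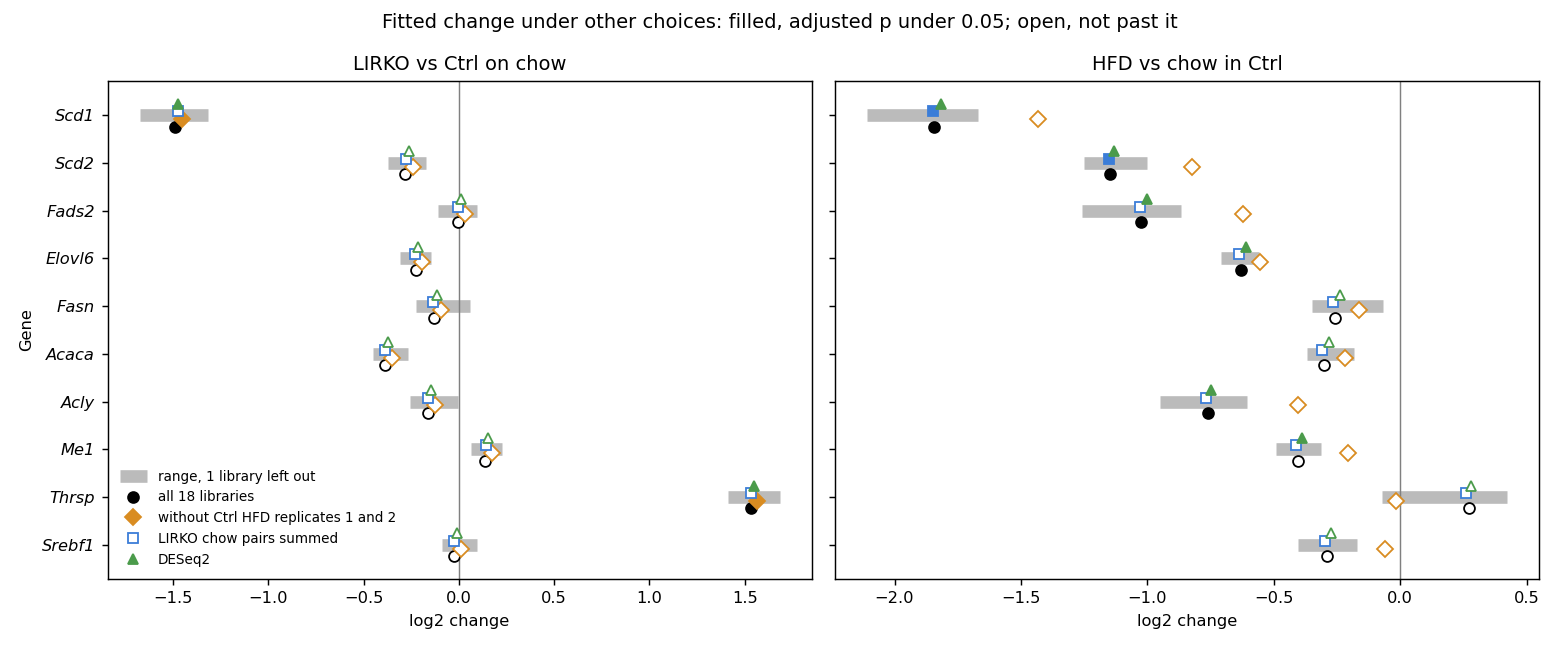
Log2 change (horizontal axis) of the 10 genes on chow between genotypes and in Ctrl between diets, with all 18 libraries and under other choices, the grey bar being the range with 1 library left out. Filled marks passed and open marks did not. In HFD against chow in Ctrl the 5 values stay below 0 in each setting drawn and are nearer to 0 without Ctrl HFD replicates 1 and 2 (−1.43 for Scd1, −0.41 for Acly).

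Markers of other cells differed with diet as well. The 10 endothelial markers summed to 42.2 to 220 CPM in Ctrl chow and 172 to 349 in Ctrl HFD, and in LIRKO to 19.7 to 194 on chow and 270 to 345 on HFD. Of these markers 4 were called higher on HFD in Ctrl and 1 in LIRKO, where 9.93% and 2.03% of all genes were called in either direction. The 10 macrophage markers summed to 155 to 279 CPM on chow and 185 to 462 on HFD in Ctrl, and to 116 to 234 and 308 to 377 in LIRKO. The 8 alpha cell markers summed in Ctrl to 1015 to 2200 CPM on chow and 781.5 to 4687 on HFD. Ctrl HFD replicates 3 and 4 were at 4550 and 4687. In LIRKO they summed to 936 to 2562 on chow and 964 to 4095 on HFD. The 7 stellate and fibroblast markers summed to 0.895 to 13.3 CPM on chow and 7.26 to 66.0 on HFD in Ctrl. In LIRKO they summed to 0.624 to 10.6 and 14.5 to 24.5. For diet in Ctrl, 1 alpha cell marker and 0 stellate and fibroblast markers passed. The 10 adipocyte markers summed to 5.42 to 8.80 CPM on chow and 11.1 to 28.0 on HFD in Ctrl, and to 6.11 to 17.5 and 24.7 to 32.5 in LIRKO, mostly from Fabp4 and Lipe, while Adipoq, Plin1 and Lep were near 0. Of the 10 beta cell markers 3 were called lower on HFD in Ctrl, among them Mafa at a log2 change of −1.87 (SE 0.436, adjusted p = 0.0312). For diet in Ctrl, 0 endothelial and 0 beta cell markers passed in edgeR without Ctrl HFD replicates 1 and 2, and likewise with the LIRKO chow pairs summed. With all libraries, 10 and 6 of them had an unadjusted p under 0.05, and the share of all genes under it is not given here. DESeq2 passed 7 and 4 of these markers, where it called 3959 genes in all. Between genotypes on chow, 0 of the 10 endothelial markers passed in edgeR (0 at an unadjusted p under 0.05), while 1 macrophage marker (Lyz2, −1.13), 1 beta cell marker (Pdx1, −0.90) and 1 of pancreatic polypeptide cells (Pyy, −1.76) were lower in LIRKO. Higher were the alpha cell markers Gc (1.90) and Ttr (0.85), the duct marker Spp1 (2.10), and Pck1 of the adipocyte list, at most 0.0293 CPM in Ctrl chow and 0.424 to 1.68 in LIRKO chow. With the LIRKO chow pairs summed, Gc and Pck1 passed and the other 5 did not. The part of these cells in the results was not tested.

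Other genes of the pathway were described by lists written with earlier results of these data known. In HFD against chow in Ctrl, 4.35% of all genes were called lower and 9.93% in either direction. In that comparison the supply of precursors and NADPH had 1 gene higher and 4 lower of 13 tested. Me3, a mitochondrial malic enzyme, was higher (log2 1.15, SE 0.156, adjusted p = 0.0039). Pcx, which feeds oxaloacetate to the mitochondrion, was lower (−0.50, adjusted p = 0.0436), as were the NADPH-producing G6pdx (−0.49, adjusted p = 0.0359), Idh1 (−0.59, adjusted p = 0.0497) and Pgd (−0.29, adjusted p = 0.0497). Only the Me3 call held without Ctrl HFD replicates 1 and 2 (0.98, adjusted p = 0.0315).

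Of 17 genes of elongation and desaturation, 5 were lower in the same comparison and none higher. These were Elovl2 (−0.77, adjusted p = 0.015), which elongates polyunsaturated chains, Hacd2 (−0.68) and Hsd17b12 (−0.65), which act within each elongation cycle, Degs1 (−0.53), a sphingolipid desaturase, and Elovl5 (−0.48). Fads1, the partner of Fads2, was at −0.46 (SE 0.157, adjusted p = 0.0611). In the carboxylation list 2 of 13 were lower, the fatty acid ligase gene Acsl5 (−0.62) and Mid1ip1 (−0.57), a relative of Thrsp. Acacb, the mitochondrial carboxylase, was at 0.81 (SE 0.404, adjusted p = 0.163) and Acss2 at −0.12 (SE 0.105, adjusted p = 0.429).

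Among 16 genes of transcriptional control, Mlxipl, which encodes the glucose-responsive factor ChREBP, was higher (1.15, SE 0.353, adjusted p = 0.0487). Its partner gene Mlx (−0.59) and Srebf2 (−0.50), the sterol-responsive relative of Srebf1, were lower. Insig1 was at −0.38 (SE 0.176, adjusted p = 0.135) and Nr1h3 at 0.64 (SE 0.244, adjusted p = 0.0831). Of 18 genes of cholesterol synthesis and uptake 9 were lower and none higher, with Msmo1 (−0.86), Idi1 (−1.34), Stard4 (−0.98), Sqle (−0.81), Nsdhl (−0.66) and Cyp51 (−0.60) first by p. Esterification had Pnpla3 higher (1.11) and Agpat5 lower (−0.40) of 10. Without Ctrl HFD replicates 1 and 2, none of the genes in these lists passed other than Me3.

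On chow, LIRKO differed from Ctrl in few of these genes, where 5.15% of all genes were called. For precursors 1 was higher and 1 lower of 13. For elongation and desaturation 1 was lower of 17 (Scd3), for esterification 3 were higher of 10, and none passed in the other lists. Dgat2, which makes triacylglycerol, was at 10.0 ± 2.44 CPM (SD, n = 6) in Ctrl and 26.9 ± 3.04 (n = 4) in LIRKO, with no overlap (log2 1.42, SE 0.251, adjusted p = 0.00242; 0.0426 with the pairs summed). Me3 was at 2.73 ± 0.403 CPM (n = 6) and 6.96 ± 0.279 (n = 4), with no overlap (log2 1.35, adjusted p = 0.000152; 0.00586 with the pairs summed). Pnpla3 (0.89) and Lpin2 (0.59) were higher and Pcx lower (−0.68), and those calls were lost with the pairs summed. Of the other genes set for naming, Insig1 was at 0.56 (SE 0.185, adjusted p = 0.0928), and Srebf2, Mlxipl, Nr1h3, Fads1, Acss2, Acacb and G6pdx did not pass. No gene of the 6 lists passed in the other 3 comparisons.

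The genes closest in pattern to those that passed were found by the root mean square difference of centred log2 CPM over the 18 libraries, among 10608 genes. For Scd2 they included Stard4 (0.215) and Prnp (0.229), against 0.601 for the gene's own deviation from its mean. Both were also among the 3 nearest to Fads2 (0.264 and 0.269, against 0.637), and Scd2 was among the 20 nearest genes to Fads2. Scd1 lay farther from its nearest genes, Maob (0.424), Fam151a (0.475) and Tmem215 (0.478), against 1.03. Elovl6 was nearest to Derl2 (0.169), Clock (0.179) and Arl8b (0.19), Acly to Jak1 (0.129), Ube3c (0.131) and Atic (0.141), and Thrsp to Fkbp11 (0.308), Ttc39c (0.308) and Nucb2 (0.341). These distances share the libraries and their depth, and carry no test.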

How the data were processed

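RNA-seq counts were analysed for 18 libraries of sorted beta cells, grouped by genotype and diet from their labels. The authors deposited raw counts, whole numbers of reads per Ensembl gene. STAR, featureCounts and GRCm38 are listed per the submitters' processing notes. Neither labels nor file header give their versions, the annotation release or the strand setting. Of 53090 gene IDs, 52489 matched GENCODE M21, which gave symbols, coordinates and exon lengths, and 601 did not.

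The test was edgeR 4.0.16 in R 4.3.3 (filterByExpr, TMM, glmQLFit and glmQLFTest, 1 coefficient per group over all 18 libraries). This left 19284 genes, with a biological coefficient of variation of 0.314. P-values were two-sided and adjusted per comparison by the Benjamini-Hochberg method, with a threshold of 0.05. SE is the log2 change divided by the square root of F. CPM uses TMM-scaled library sizes. Shares of Scd1 were compared by exact permutation tests over libraries. The method was tested on simulated data. DESeq2 1.42.0, other scalings, no filter, 2-group fits and leaving out libraries were alternatives. Leaving out Ctrl HFD replicates 1 and 2 together with the pairs summed was added after the data were seen.

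The 10 genes, the lists and the markers were chosen with earlier results of these data known. The text names all 10 genes, up to 6 passing genes per list by p, a set of fixed genes (Insig1, Srebf2, Mlxipl, Nr1h3, Fads1, Acss2, Acacb, G6pdx), and the 3 nearest genes by root mean square difference in log2 CPM (prior count 2, mean of at least 2). A few genes that the rule names are not reported here.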

Additional observations from a re-analysis of the deposited data

Results flagged for a closer look

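Of 30 gene and group combinations with 4 or more libraries, 2 had a library far from the rest of its group by Dixon's criterion, which chance alone gives in about 1 of 20. Me1 was at 62.6 CPM in Ctrl chow replicate 1, against 39.5 to 47.1 in the other 5 libraries of that group. Thrsp was at 2.33 CPM in Ctrl HFD replicate 2, against 0.888 to 1.10 in the other 4, and that library is 1 of the 2 with low depth and a high Malat1 share.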

How the results depend on the processing

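All values here are from edgeR unless DESeq2 is named, and the cause of a change was not tested. With the LIRKO chow pairs summed, 0 of the 10 genes passed for genotype on chow, 1 when Ctrl HFD replicates 1 and 2 were also left out, and 1 to 2 when single libraries were left out. For HFD against chow in Ctrl, the count was 3 with no filter on low counts, 2 with the pairs summed, 0 on the 2 groups alone, 0 without Ctrl HFD replicates 1 and 2, with or without summing, and 1 to 6 with single libraries left out. For HFD against chow in LIRKO it was 1 in DESeq2, 4 on the 2 groups alone and 0 with the pairs summed.

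Counts over all genes, in the order genotype on chow, genotype on HFD, diet in Ctrl, diet in LIRKO and interaction, were 993, 98, 1914, 392 and 1. In DESeq2 they were 1649, 316, 3959, 1059 and 42. On the 2 groups alone they were 1653, 19, 1 and 3403, and with the pairs summed 193, 54, 114, 7 and 0. Without Ctrl HFD replicates 1 and 2 they were 1765, 193, 34, 1191 and 8, and with both changes 363 on chow, 1 for diet in Ctrl, 59 for diet in LIRKO and 2 for the interaction. With no filter, diet gave 457 in Ctrl and 250 in LIRKO. Leaving out single libraries gave 431 to 1126, 10 to 162, 69 to 3877, 55 to 502 and 0 to 3.

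The Scd1 share on chow differed by −1.1 percentage points with the pairs summed, with or without Ctrl HFD replicates 1 and 2 (exact p = 0.0714, the smallest possible there). Without those 2 libraries it differed by −0.761 for genotype on HFD (exact p = 0.1, also the smallest possible) and by −0.665 for diet in Ctrl (exact p = 0.0714). With single libraries left out, the share difference on HFD ran from −0.748 to −0.498. Each refit without an HFD library gave the smallest exact p its number of libraries allows, 0.0571 or 0.0952, so these p-values say nothing about stability. By longest transcript in place of all exons, 8 of 10 genes kept their place in the order of levels.

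Signs turned only in log2 changes that did not pass. On chow, Fads2 was at 0.013 with DESeq2's size factors and in DESeq2, 0.027 with upper quartile scaling, 0.029 with no filter, 0.017 on the 2 groups, and 0.034 without Ctrl HFD replicates 1 and 2 (0.031 with the pairs summed). Srebf1 on chow was at 0.006 with upper quartile scaling, 0.007 with no filter, and 0.01 and 0.011 without those replicates. On HFD, Me1 was at −0.104 and −0.108 without them and Srebf1 at −0.183 and −0.187 (−0.004 on the 2 groups). Thrsp for diet in Ctrl was at −0.015 and −0.016, and the interaction was −0.04 in both for Elovl6, −0.292 and −0.294 for Acly, and −0.193 and −0.198 for Srebf1. Acaca for diet in LIRKO was at −0.012 with no filter.

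With single libraries left out, log2 changes that spanned 0 were Fads2 (−0.108 to 0.095), Fasn (−0.224 to 0.057) and Srebf1 (−0.088 to 0.093) for genotype on chow, and Acaca (−0.14 to 0.006), Acly (−0.242 to 0.08), Fasn (−0.396 to 0.015), Me1 (−0.039 to 0.143) and Srebf1 (−0.093 to 0.117) for genotype on HFD. For diet they were Thrsp in Ctrl (−0.071 to 0.424), and Acaca (−0.062 to 0.086) and Scd2 (−0.619 to 0.107) in LIRKO. For the interaction they were Acly (−0.103 to 0.241), Elovl6 (−0.076 to 0.129), Fasn (−0.263 to 0.148), Me1 (−0.179 to 0.006) and Srebf1 (−0.093 to 0.143). No paired analysis was possible because the labels give no replicate numbers that groups share. Scd1 and Thrsp rest on few reads, and how small a difference in them could be detected was not tested.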
